A study of Mus musculus with 6 samples.

Results

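The MLL and menin complexes that write histone H3 lysine 4 (H3K4) methylation were followed through 10 of their subunit genes, out of 46983 genes listed in the count tables. The members were chosen by name: the enzymes Kmt2a, Kmt2b, Kmt2c and Kmt2d, the menin gene Men1, the core subunits Ash2l, Wdr5, Rbbp5 and Dpy30, and Hcfc1. All 10 were matched to the tables and all 10 passed the low-count filter, among 12292 genes tested. Polyadenylated RNA was sequenced from C57BL/6 mouse marrow progenitors depleted of mature lineages and grown for 6 to 7 days as methylcellulose colonies fed with stem cell factor, IL-6 and IL-3. Donor mice were 8 to 11 weeks old by the sample tags and no older than 10 weeks by the growth protocol. The 3 WT samples are tagged wild type, and the series design gives their genotype as PsipFl/Fl, a floxed Psip1 allele on both chromosomes. The 3 KO samples are tagged Psip1-KO, with the genotype PsipVav/Vav in the design. No further allele or agent is named for either group, and the growth factors were shared by both. The labels do not say whether the samples of a group came from separate animals, so p-values measure only the spread between these libraries, which may be technical.

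The KMT2 (MLL) proteins are large methyltransferases whose catalytic SET domain gains activity when bound to a core module of WDR5, RBBP5, ASH2L and DPY30. Menin joins the MLL1 and MLL2 enzymes, encoded by Kmt2a and Kmt2b, and LEDGF, the Psip1 product, links menin and MLL to chromatin. In blood, MLL1 keeps HOXA genes active in stem and progenitor cells, and its fusions drive acute leukaemia. The MLL3 and MLL4 enzymes, encoded by Kmt2c and Kmt2d, work without menin and act mainly at enhancers.

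Depth was uneven, which bears on each value below. The 5 deep libraries held 7056614 to 15569088 gene reads, while WT replicate 3 held 27909 over its 2 sequencing runs, so its members are given as reads. Levels in the deep libraries are normalised CPM, counts scaled to each library's effective size. A single read of WT replicate 3 equals 29.9 CPM, and 0 reads there leave room for a level of up to 89.6 CPM by counting error alone (3 reads, a one-sided 95% limit, whereas the intervals below are two-sided). The mitochondrial share of gene reads was 15.74% for KO replicate 2 and 9.52% for WT replicate 3, and between 1.26% and 1.84% for the other libraries. Of the myeloid markers looked up, all 5 of neutrophil precursors, all 5 of mature neutrophils, all 5 of mast cells and basophils and all 5 of monocytes and macrophages exceeded 1 CPM in each deep library. The B cell markers summed to 0.66 to 9.01 CPM with Ms4a1 at 0 reads, and the T cell markers to 0.949 to 3.07 CPM with Cd3e and Cd3g at 0. Erythroid markers summed to 5.48 to 67.2 CPM and stromal and endothelial ones to 133 to 248 CPM.

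The targeted gene was checked first. Psip1 (chromosome 4, 83455680 to 83486459, minus strand, GRCm38) reached 89.3 CPM in the first and 70.0 in the second WT library, with 3 reads in the third, against 14.8 to 17.6 CPM under the KO label. Each KO library lay below each WT library. The fitted log2 fold change was -2.32 (SE 0.32, 95% interval -3.02 to -1.61), and edgeR's quasi-likelihood test gave an adjusted p = 0.05995, above the threshold of 0.05. The count spans the whole gene and so includes exons outside any deletion.

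The main test called none of the 10 subunit genes, but it called no gene at all, Psip1 included. Its outcome therefore cannot show that the levels of the subunit genes were unchanged. By edgeR's quasi-likelihood test 0 of 10 members passed an adjusted p of 0.05, and 0 of all 12292 genes did (0%). At an unadjusted p under 0.05 the count was 0 of 10 members, against 178 of all genes (1.45%). Without WT replicate 1 that count was 2 of 10, Kmt2a and Kmt2c, both with positive values, against 740 of all genes (5.9%). Their adjusted p by edgeR's quasi-likelihood test was then 0.7331 and 0.7734. The only deep WT library left in that fit was WT replicate 2. DESeq2 and limma-voom also called 0 members, beside 1 gene (0.0045%) and 0 genes (0%) over their whole tables. DESeq2 without WT replicate 3, added after seeing the data, called 0 members and 12 of all genes (0.054%). In 0 of 10 members did the KO libraries lie wholly above or below the WT libraries, a separation that 4.77% of all tested genes showed over 6 libraries and 8.66% over the 5 deep ones. Fitted log2 fold changes (KO over WT) ran from -0.24 for Men1 to 0.35 for Kmt2a, with 7 positive and 3 negative. That split rested on the shallow WT replicate 3, without which Wdr5 was at -0.10 and Hcfc1 at -0.08. The median size without sign was 0.18 for the members and 0.18 for all tested genes. In colonies of mixed cell types, fewer cells of a type and less RNA per cell cannot be told apart.

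**Figure D1:**
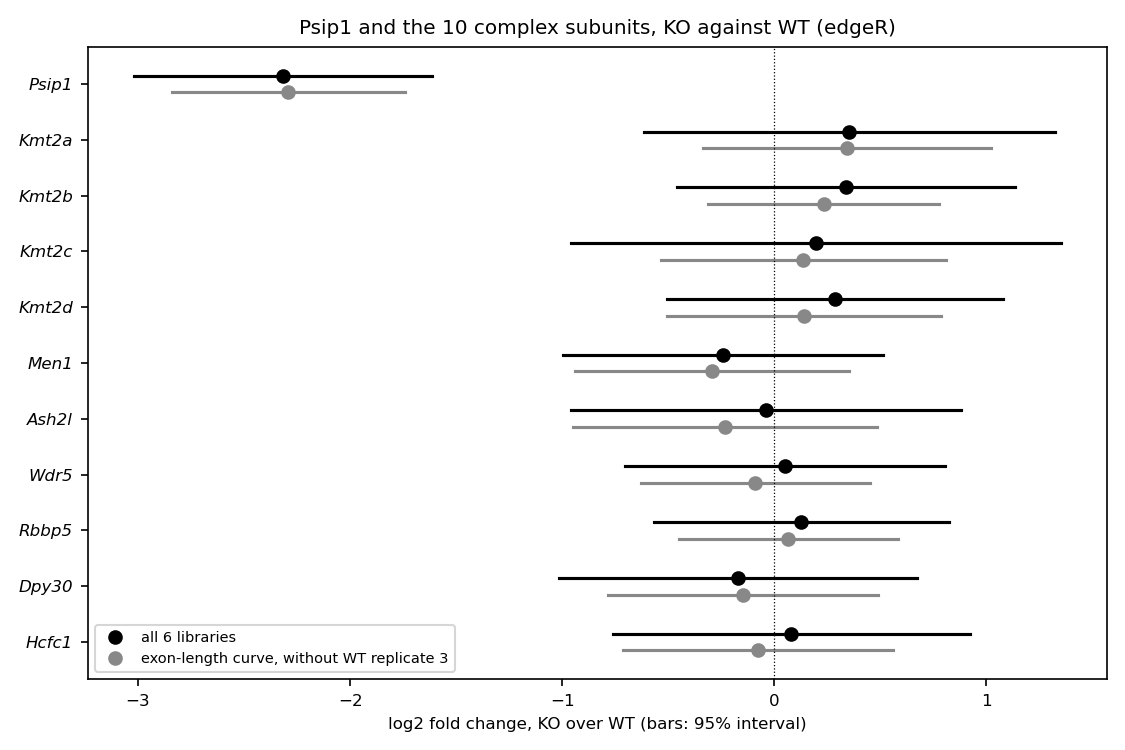
Log2 fold change of Psip1 and the 10 subunit genes, KO over WT, on the x axis, 1 gene per line. Points are edgeR estimates and bars 95% intervals. Black is for all 6 libraries and grey for a fit of the 5 deep libraries with an exon-length curve as offset. The bars of all 10 subunits include 0 while those of Psip1 do not.

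Kmt2a encodes MLL1, the enzyme that menin and LEDGF hold at chromatin (chromosome 9, 44803355 to 44881296, minus strand). Its level was 141 CPM in WT replicate 1 and 54.6 in WT replicate 2, with 1 read in WT replicate 3, and 84.0, 122 and 139.8 CPM in KO replicates 1, 2 and 3. The highest and the lowest deep library were both WT, and the 3 KO libraries (115 ± 28.5 CPM, SD, n = 3) lay between them. The log2 fold change was 0.35 (SE 0.44), and its 95% interval of -0.62 to 1.32 covers levels from 0.653 to 2.5 times WT. Without WT replicate 2 the value was 0.02, and without WT replicate 1 it was 1.21.

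Kmt2b, which encodes the closest relative, MLL2 (chromosome 7, 30568858 to 30588726, minus strand), was steadier. WT replicate 1 had 129 CPM, WT replicate 2 had 94.2 and WT replicate 3 had 1 read, and the KO libraries had 118, 135 and 132 CPM (128 ± 9.22, SD, n = 3). The KO libraries were close together, and 2 of them lay above WT replicate 1. Its log2 fold change of 0.34 (SE 0.36) had an interval of -0.46 to 1.13. Leaving out 1 library at a time gave 0.20 to 0.68.

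The enhancer enzymes lie on chromosome 5 (Kmt2c, 25271798 to 25498783, minus strand) and chromosome 15 (Kmt2d, 98831669 to 98871204, minus strand). Kmt2c was at 141 CPM (WT replicate 1), 48.0 CPM (WT replicate 2), 0 reads (WT replicate 3) and, for KO, at 73.2, 78.8 and 139 CPM. It had the widest spread of the 10 members, with the highest deep library 2.94 times the lowest, and both ends were WT. Its log2 fold change was 0.20 (SE 0.53, interval -0.96 to 1.35), and it was -0.17 without WT replicate 2. Kmt2d was at 266 and 184 CPM in the deep WT pair, at 3 reads in the shallow one and, for KO, at 240.0, 237 and 255 CPM. All 3 KO libraries lay between those 2 WT libraries, and the log2 fold change was 0.28 (SE 0.36, interval -0.51 to 1.08), or 0.11 to 0.66 when 1 library was left out, the highest without WT replicate 1.

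The 4 enzymes thus all had a positive fitted value (median 0.31), and WT replicate 2 was the lowest deep library for each. WT replicate 3 held 5 reads of the 4 enzymes together (exact 95% interval 1.62 to 11.7), where the mean of the other WT libraries would give 17.7. It held 16 reads of all 10 members (9.15 to 26.0), where the same mean would give 42.7. The intervals cover counting error only. With that library left out, the values were 0.23, 0.20, 0.04 and 0.11 for Kmt2a, Kmt2b, Kmt2c and Kmt2d.

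Men1 encodes menin, a tumour suppressor and the scaffold between MLL and LEDGF (chromosome 19, 6334979 to 6340891, plus strand). WT replicate 1 gave 49.5 CPM, WT replicate 2 gave 75.0 and WT replicate 3 gave 1 read, while KO gave 61.4, 43.7 and 46.3 CPM (50.4 ± 9.54, SD, n = 3). WT replicate 2, the lowest deep library for each of the 4 enzymes, was the highest for Men1. The log2 fold change was -0.24 (SE 0.34, interval -0.998 to 0.52), and without WT replicate 2 it was 0.10.

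Since Kmt2a and Men1 encode the direct partners through which LEDGF acts, the sequences around their annotated starts are shown. Whether these stretches control the RNAs was not tested. Each window runs from 250 bases before to 50 bases after the RefSeq start (GRCm38.p6), 5′ to 3′ on the gene's strand, with CpG dinucleotides in capitals. The Kmt2a window is chr9:44881240-44881539 (minus strand) and the Men1 window, the first of 3 listed, is chr19:6334729-6335028 (plus strand).
Kmt2a: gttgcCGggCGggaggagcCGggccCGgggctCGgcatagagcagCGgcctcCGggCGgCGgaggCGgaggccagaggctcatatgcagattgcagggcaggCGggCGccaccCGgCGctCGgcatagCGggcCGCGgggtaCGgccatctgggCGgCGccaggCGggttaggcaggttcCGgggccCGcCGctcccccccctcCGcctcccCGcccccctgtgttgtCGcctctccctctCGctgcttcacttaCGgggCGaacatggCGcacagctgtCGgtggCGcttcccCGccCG
Men1: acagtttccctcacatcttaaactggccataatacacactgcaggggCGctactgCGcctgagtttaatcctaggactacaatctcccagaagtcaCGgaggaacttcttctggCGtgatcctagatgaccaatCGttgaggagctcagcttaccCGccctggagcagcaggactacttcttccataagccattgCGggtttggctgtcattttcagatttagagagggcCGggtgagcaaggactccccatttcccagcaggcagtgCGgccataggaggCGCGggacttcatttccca
The motif searched was CG, which reads the same on both strands. The Kmt2a window holds 36 CpG, a number that 6.02% of 27025 first-listed gene windows reach, and the Men1 window holds 11, which 41.9% reach. Of the members 8 were matched in the table (not Kmt2b or Ash2l), with a median of 21.5 CpG against 7 over all windows. The range ran from 1 in Dpy30, the first of 4 windows listed for it, to 56 in Kmt2c.

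The core subunits, which every KMT2 enzyme shares, had log2 fold changes from -0.17 to 0.13, with intervals that together reach from -1.02 to 0.88. Wdr5 encodes the WD40 propeller that grips the enzyme (chromosome 2, 27515157 to 27536535, plus strand). It gave 184 and 215 CPM for the deep WT pair, 3 reads for WT replicate 3, and 208, 174 and 179 CPM for KO, with overlapping groups and a log2 fold change of 0.05 (SE 0.34, interval -0.70 to 0.80). Rbbp5, which links WDR5 to ASH2L (chromosome 1, 132477365 to 132505659, plus strand), was the steadiest member. It ran from 59.8 to 70.1 CPM over the 5 deep libraries, a ratio of 1.17, with 1 read in WT replicate 3. KO replicate 2 was its highest library and WT replicate 2 its lowest. Its log2 fold change was 0.13 (SE 0.32, interval -0.57 to 0.82).

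Ash2l encodes the subunit that pairs with RBBP5 to activate the SET domain (chromosome 8, 25815996 to 25847694, minus strand). The deep WT pair gave 86.1 and 108 CPM, WT replicate 3 gave 0 reads, and the KO libraries gave 94.1, 67.2 and 92.3 CPM. Its lowest deep library was KO replicate 2, as it was for Men1, Wdr5 and Hcfc1, whereas Kmt2b and Rbbp5 were highest there. Whether that library's mitochondrial share of 15.74% played a part was not tested. The log2 fold change of Ash2l was -0.04 (SE 0.42). Dpy30, the small subunit that binds ASH2L and is needed for full H3K4 trimethylation (chromosome 17, 74299474 to 74323944, minus strand), gave 41.3 and 83.3 CPM for the deep WT pair, 2 reads for WT replicate 3, and 71.8, 52.7 and 40.8 CPM for KO. It was highest in WT replicate 2 and KO replicate 1 and lowest in WT replicate 1 and KO replicate 3, so that libraries of different genotypes lay side by side. Its log2 fold change was -0.17 (SE 0.39, interval -1.02 to 0.67).

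Hcfc1 encodes host cell factor, a scaffold that joins MLL complexes to transcription factors (chromosome X, 73942792 to 73966357, minus strand). Its levels were 309 and 216 CPM for the deep WT pair (and 4 reads for WT replicate 3) and 239, 180.0 and 324 for KO. WT replicate 1 and KO replicate 3 were again the high pair. The KO mean was 248 ± 72.6 (SD, n = 3), and the log2 fold change was 0.08 (SE 0.38, interval -0.76 to 0.92). The summed markers of monocytes and macrophages were also highest in those libraries, at 12390 and 12340 CPM, and ran from 4536 to 7620 in the other 3. Their part in the Hcfc1 level was not tested.

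**Figure D2:**
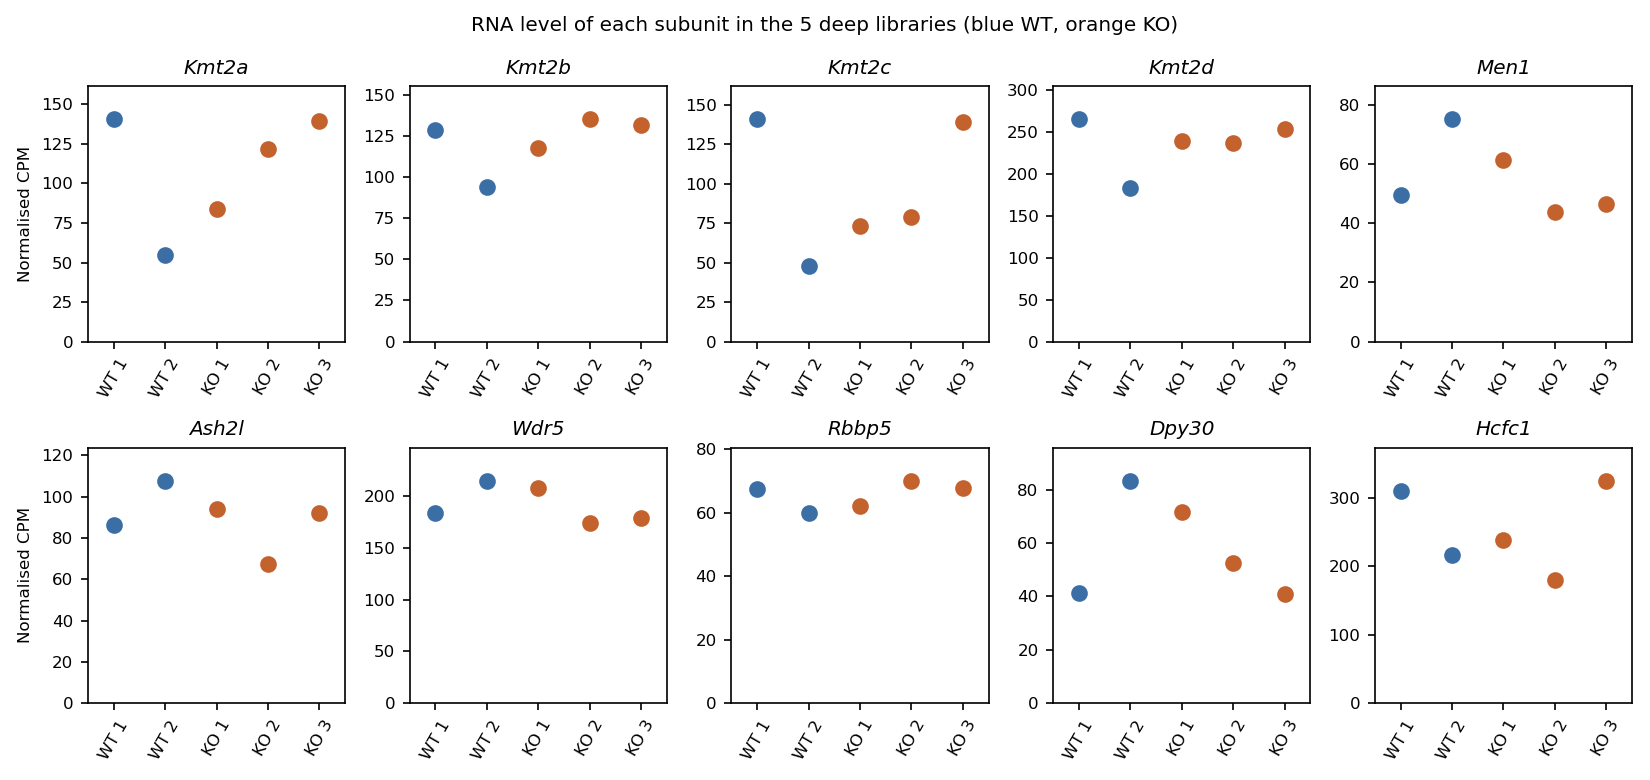
Normalised CPM (y axis, from 0) of each subunit gene in the 5 deep libraries (x axis), 1 point per library, blue for WT and orange for KO. Kmt2a and Kmt2c are lowest in WT replicate 2, where Men1, Ash2l, Wdr5 and Dpy30 are highest, and in no panel do the colours separate.

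On a scale of CPM per kilobase of annotated exon, Wdr5 and Dpy30 led and Kmt2a and Kmt2c trailed. Levels of short and long genes shifted against each other between libraries, as described below, so this scale compares genes of unlike length only roughly. Wdr5 stood at 53.4 ± 5.09 and Dpy30 at 50.6 ± 16.5 (SD over the 5 deep libraries, both genotypes), followed by Hcfc1 at 30.3 ± 7.36. The others were Rbbp5 at 16.7 ± 1.10, Men1 at 14.4 ± 3.39, Kmt2b at 12.7 ± 1.74, Kmt2d at 11.8 ± 1.57, Ash2l at 9.98 ± 1.64, Kmt2a at 6.49 ± 2.26 and Kmt2c at 4.73 ± 2.06. Of the 9 neighbouring pairs in this order, 8 had overlapping ranges over the libraries, and the pair without overlap was Hcfc1 above Rbbp5. Ash2l, the core subunit with the longest exons (8.969 kb), lay among the enzymes on this scale. Exon length is the union of all annotated transcripts, so the level of a gene with rarely used exons is understated.

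**Figure D3:**
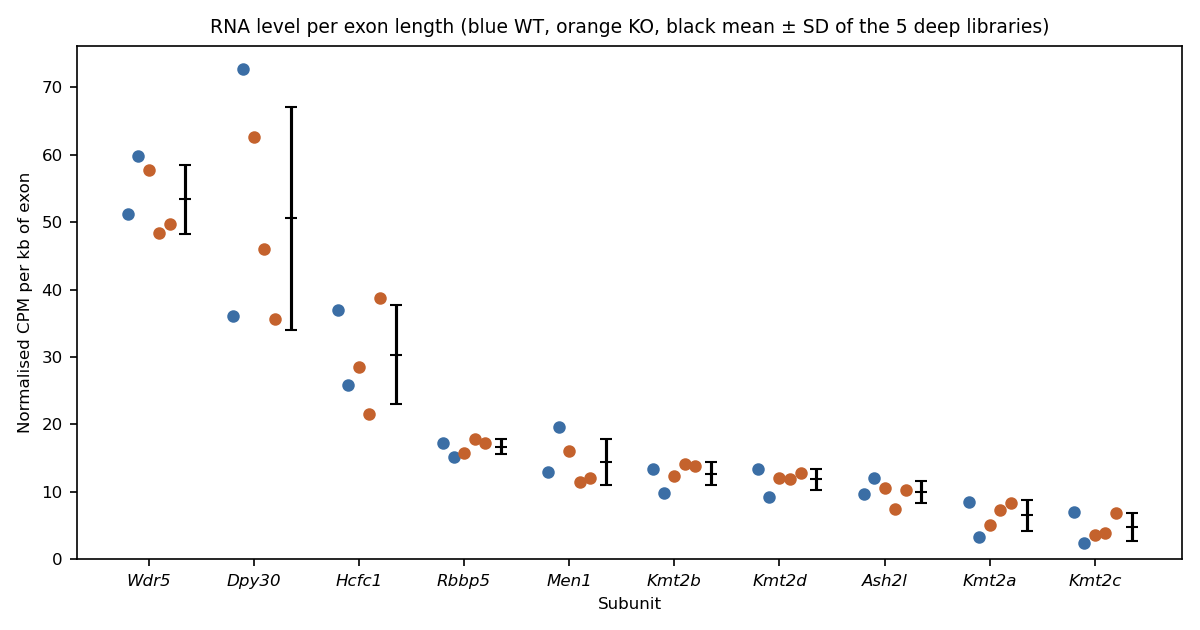
Normalised CPM per kilobase of exon (y axis, from 0) for the 10 subunit genes, ordered by mean. Points are the 5 deep libraries (blue WT, orange KO) and black bars mean ± SD, and the range from Rbbp5 to Kmt2c lies below that of Hcfc1.

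Kmt2a and Kmt2c on one side and Men1, Wdr5 and Dpy30 on the other differed in opposite directions between the deep WT libraries. They also did so between KO replicates 3 and 1 and between KO replicates 1 and 2. Between KO replicates 3 and 2, Kmt2a, Kmt2c, Men1 and Wdr5 were all higher in replicate 3, and Dpy30 was lower. WT replicate 1 held 2.57 times the Kmt2a level and 2.94 times the Kmt2c level of WT replicate 2, but 0.496 times its Dpy30 level and 0.66 times its Men1 level. All 4 enzymes were higher in WT replicate 1 (median log2 difference 0.95), and the median of the other 6 members was -0.27. Hcfc1 (0.52) and Rbbp5 (0.18) nevertheless lay on the side of the enzymes, as they did between KO replicates 3 and 1 (0.44 and 0.13). KO replicate 3 against KO replicate 1, a pair picked after the values were seen, gave a median of 0.45 for the enzymes and -0.12 for the others. Between KO replicates 3 and 2 the medians were close, at 0.15 and 0.06. For each Men1 read there were 2.84 Kmt2a reads in WT replicate 1 but 0.728 in WT replicate 2, with 1.37, 2.79 and 3.02 in the KO libraries in order of number. The ratio, which no library scaling can change, thus spanned nearly its whole range within WT. Kmt2a to Kmt2b was also lowest in WT replicate 2, at 0.58, and highest in WT replicate 1, at 1.09.

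Exon length moved with these differences. The enzymes are long (Kmt2b 9.596 kb, Kmt2a 16.67 kb, Kmt2d 19.93 kb and Kmt2c 20.29 kb), and Dpy30, at 1.146 kb, is the shortest member. Over the 1143 tested genes with exons over 10 kb, the median log2 difference of WT replicate 1 from WT replicate 2 was 0.65, and 82.6% were higher in replicate 1. Over the 1793 genes under 2 kb it was -0.65, with 23.5% higher. The same classes differed by 0.40 and -0.41 between KO replicates 3 and 1. Kmt2a, at 1.36 between the WT libraries, and Kmt2c, at 1.55, were exceeded or matched by 16.9% and 12.3% of genes over 10 kb, while Kmt2d, at 0.53, was matched or exceeded by 56.8%. Dpy30, at -1.01, was matched or undercut by 31.7% of the genes under 2 kb.

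**Figure D4:**
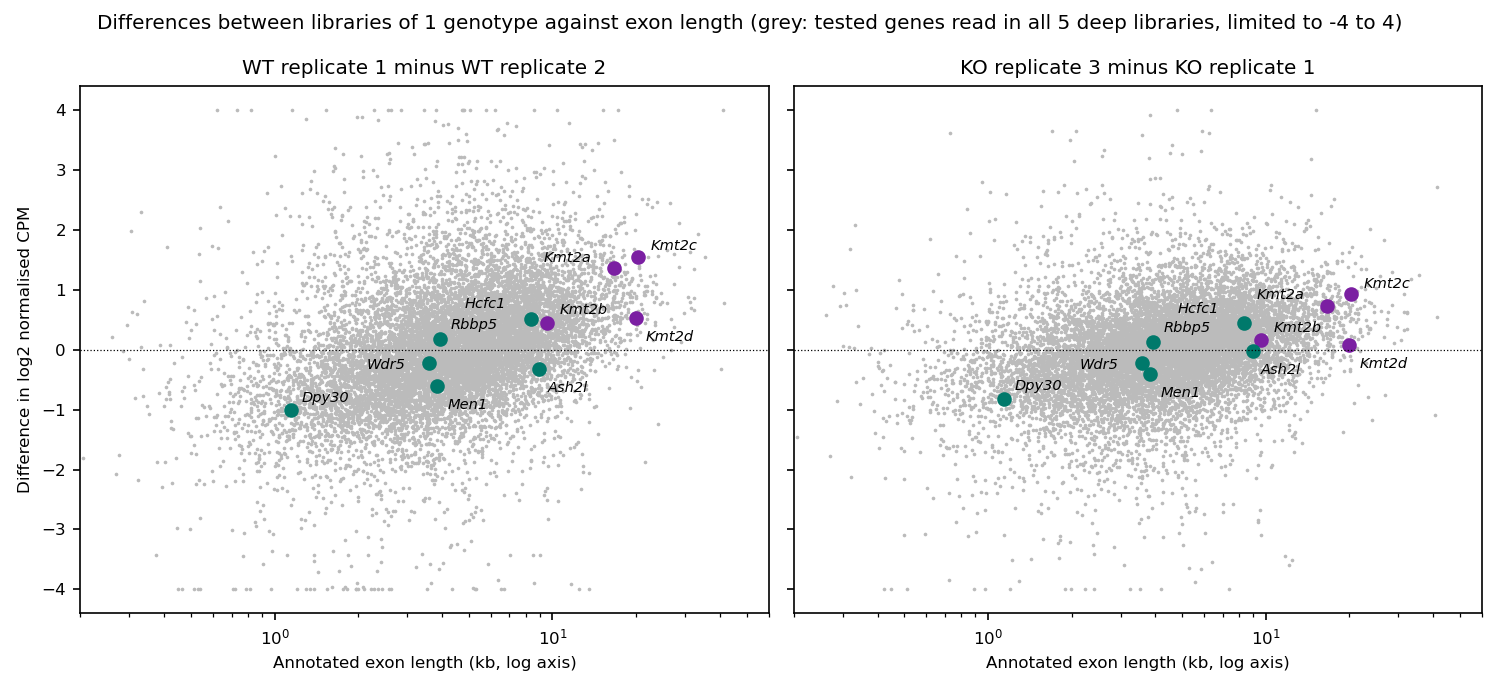
Difference in log2 normalised CPM between libraries of 1 genotype (y axis) against annotated exon length in kb (x axis, log scale), WT replicate 1 minus 2 on the left and KO replicate 3 minus 1 on the right. Grey points are tested genes, purple the 4 enzymes and green the other members, and differences rise with exon length, from a median of -0.65 under 2 kb to 0.65 over 10 kb on the left.

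A curve on exon length was fitted for each deep library to log2 CPM centred on each gene's mean over the deep libraries. Removed as an offset, it narrowed part of these differences. The difference between the deep WT libraries went from 1.37 to 0.58 for Kmt2a and from 1.56 to 0.68 for Kmt2c. It went from 0.46 to -0.03 for Kmt2b and from 0.54 to -0.34 for Kmt2d, so that 2 of the 4 enzymes were no longer higher in WT replicate 1. It went from -1.0045 to -0.31 for Dpy30. It stayed similar for Men1 (-0.59 and -0.51) and widened for Ash2l (-0.32 and -0.76) and Rbbp5 (0.18 and 0.25). The difference between KO replicates 3 and 1 widened for Kmt2d (0.09 and -0.49), Ash2l (-0.02 and -0.31) and Rbbp5 (0.14 and 0.18). For each other member it shrank in size, as for Kmt2a (0.74 and 0.22). With this curve the log2 fold changes between genotypes were 0.34 (SE 0.28) for Kmt2a, 0.23 (SE 0.23) for Kmt2b, 0.14 (SE 0.28) for Kmt2c and 0.14 (SE 0.27) for Kmt2d, and -0.29 (SE 0.27) for Men1. By edgeR 0 of 10 members were called there, as were 0 of 12957 genes, with 149 of them at an unadjusted p under 0.05. This fit was chosen after seeing the data. Markers of neutrophil precursors also differed between these libraries, with sums of 2054 CPM (WT replicate 1), 9017 (WT replicate 2), 6858 (KO replicate 1), 2063 (KO replicate 2) and 1737 (KO replicate 3), and their part in the members' levels was not tested.

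Genes with the most similar profile were sought among 8837 genes with a mean of at least 10 CPM, by the root-mean-square difference of centred log2 CPM over the 5 deep libraries. For Men1 they were Exog (0.02), Prim2 (0.02) and Alyref (0.02), and for Kmt2a Zfp51 (0.06), Zfp142 (0.07) and Pcf11 (0.07). Among the members, Ash2l and Wdr5 were closest to Men1 (0.17 each), at ranks 620 and 658 of all genes compared, and Kmt2c to Kmt2a (0.23), at rank 295, while Men1 and Kmt2a stood 0.80 apart.

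In the wider H3K4 set, no tested gene passed the threshold with all 6 libraries and the low-count filter. Besides Psip1, 20 of 25 such genes had enough reads to be tested, and by edgeR 0 rose and 0 fell, with 0 at an unadjusted p under 0.05 (0% and 1.45% of all genes). Their median log2 fold change was -0.09, against 0.01 for all genes tested. Among subunits of the SET1 complexes and other MLL partners, 5 of 11 values were positive and 6 negative. The highest was that of Cxxc1, which encodes the CpG-binding subunit of SET1 complexes, at 0.16 (SE 0.33), and the lowest, at -0.22 (SE 0.34), was that of Kdm6a, an H3K27 demethylase in the MLL3 and MLL4 complexes, named after its value was seen. Setd1b, a SET1 methyltransferase gene, was at 0.04 (SE 0.38), Kmt2e, an MLL relative, at 0.11 (SE 0.44) and Ncoa6, a coactivator of the MLL3 and MLL4 complexes, at 0.08 (SE 0.41). Kmt2e ranked the deep libraries in the same order as Kmt2a, with 200.4 and 79.4 CPM for the deep WT pair and 100.3, 141 and 175 for KO. Pagr1a had 0 reads in each library. Whether its RNA was absent or its reads fell among those assigned to no gene was not tested.

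H3K4 demethylase genes had 1 positive and 4 negative values out of 5, with Kdm5b lowest at -0.39 (SE 0.34). It gave 45.5 and 50.9 CPM for the deep WT pair, 3 reads for WT replicate 3, and 35.3, 46.2 and 35.4 CPM for KO, so that the groups overlapped. Of 8 genes known to need menin or MLL, 4 could be tested, and all 4 values were negative (median -0.34), though Meis1 turned to 0.30 without WT replicate 1 and to 0.05 without KO replicate 1. The cell cycle inhibitor genes Cdkn2c and Cdkn1b, which menin and MLL are known to activate in endocrine cells, were at -0.44 (SE 0.35) and -0.39 (SE 0.39), the HOX cofactor gene Pbx3 at -0.29 (SE 0.43) and Meis1, another cofactor, at -0.23 (SE 0.52). Cdkn1b was at -0.17 without WT replicate 3 and Pbx3 at -0.11 without WT replicate 1. Cdkn2c gave 31.6 and 34.4 CPM for the deep WT pair and 30.6, 19.3 and 22.6 for KO, the 3 KO values all below both. WT replicate 3 had 1 read of it, worth less than the highest KO value. Pbx3 also lay lower in each KO library than in both deep WT libraries, with 0 reads in WT replicate 3. Such a separation over the 5 deep libraries, in either direction, was shown by 8.66% of all tested genes. Hoxa9, the best known MLL target, was too scarce for the filter, with 22, 53 and 0 reads in WT and 2, 0 and 0 in KO. It was called lower when no filter was used (edgeR, adjusted p = 0.004246), an analysis in which 9 of 22237 genes were called. DESeq2 with all 6 libraries did not call Hoxa9. Without WT replicate 3, a fit added after seeing the data, DESeq2 did call it.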

How the data were processed

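Raw counts of reads per gene were deposited by the authors, 1 file per sequencing run (7 files, 6 samples). STAR 2.5.1b, DESeq2 and GRCm38 appear, per the submitters' processing notes, and the file layout is that of the STAR gene counter. The annotation release was not given in the sources used here. TruSeq Stranded libraries reverse the strand, so column 4 was used, and both runs of WT replicate 3 (27351 and 558 reads) were summed. Rows naming no gene (25.64% to 47.81% of reads) were left out. Of 46983 genes, 46488 were matched by identifier to GENCODE M21 for symbols, coordinates and exon length. Kmt2a and Kmt2c overlap antisense annotations by 378 and 274 bases, which column 4 separates.

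Genes were filtered with filterByExpr, scaled by TMM and tested with edgeR 4.0.16 (robust glmQLFit, glmQLFTest) by a two-sided test of genotype alone, with Benjamini-Hochberg adjustment over all genes. Intervals are the log2 fold change ± the t quantile times SE. DESeq2 1.42.0 and limma 3.58.1 (voom) were alternatives. The main edgeR fit and the fit with the exon-length curve were tested on simulated data, and the DESeq2 and limma fits were not. Member proteins were not analysed here. Exact permutation over 3 against 3 libraries cannot go below p = 0.1 and was not used. Members, lists and alternatives were chosen with earlier results of these data known. Named genes are the members, Psip1, Hoxa9, Meis1 and, of the wider list, the 4 of lowest p per direction, besides Pagr1a, Kdm6a, Cd3e, Cd3g and Ms4a1, which were named after their counts were seen.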

Additional observations from a re-analysis of the deposited data

How the results depend on the processing

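Over 17 alternatives each, 0 members were called (170 values, smallest adjusted p 0.7331), and 22 of those values changed sign. The number of all genes called moved from 0 to 2 with library size only, 9 without a filter, 1 with DESeq2, 4 at a threshold of 0.1 and 12 with DESeq2 without WT replicate 3, and ran from 0 to 5 when each library was left out (5 without WT replicate 1, 3 without WT replicate 2, 2 without KO replicate 1 and 5 without KO replicate 3). Wider H3K4 genes called were 2 without a filter and 2 with DESeq2 without WT replicate 3 (Psip1 and Hoxa9 both times), 1 with the replicate block and 1 at 0.1. Whether replicate numbers pair the samples is not given by the labels. Deviations of same-numbered libraries from their group means correlated at -0.33, -0.05 and -0.21 across genes, and no library correlated best with its own number. The WT means include the shallow WT replicate 3, so these correlations cannot exclude pairing. With the replicate number as a block, 13 genes and 0 members were called, and Ash2l was at 0.0852.

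Signs turned in other settings too. Ash2l was at 4.98e-05, in effect 0, without a filter and at 0.0644 with DESeq2. Wdr5 was at -0.0072 with library size only, -0.073 with limma-voom, -0.11 with DESeq2 without WT replicate 3, -0.0495 without WT replicate 3 and KO replicate 2, and -0.0896 with the exon-length curve. Hcfc1 was at -0.0764 with limma-voom, -0.0932 with DESeq2 without WT replicate 3 and -0.0752 with the curve. Kmt2e was at -0.0316 with DESeq2 without WT replicate 3 and -0.029 without both libraries. Ncoa6 was at -0.0031, -0.0417 and -0.0018 with limma-voom, DESeq2 without WT replicate 3 and the curve, and Setd1b at -0.0552 and -0.0048 with the last 2 of these. The DESeq2 fit without WT replicate 3, the fit without both libraries and the curve were chosen after seeing the data. Leaving out 1 library at a time gave -0.17 to 1.23 for Kmt2c, -0.40 to 0.10 for Men1, -0.20 to 0.24 for Ash2l, -0.10 to 0.26 for Wdr5, -0.48 to 0.36 for Dpy30, -0.14 to 0.45 for Hcfc1, -0.20 to 0.92 for Kmt2e, -0.26 to 0.65 for Ncoa6, -0.19 to 0.57 for Setd1b and -0.70 to 0.30 for Meis1. The cause was not tested. With 0 to 4 reads per member, WT replicate 3 cannot show differences of the sizes seen here.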
